A study of Orbicella faveolata with 48 samples.

Results

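The transcripts described here stood higher in inshore than in offshore colonies of the mountainous star coral Orbicella faveolata at the control temperature, and were higher under heat offshore but little inshore at 5 days. They are 200 of the 87440 features in the coral count table, each an assembled transcript known by an identifier alone. They were chosen from the libraries of 5 days on log2(CPM + 1), where CPM is counts per 1000000 coral counts of the library. Of 26353 features with a mean of at least 2 CPM over all 48 libraries, those kept had an offshore heated median at least 0.8 above the offshore control median. Their inshore control median stood at least 0.8 above the offshore control median, and their inshore heated median less than 0.5 above the inshore control median. These thresholds were met by 207 features, and the 200 with the largest inshore minus offshore difference of the controls are the members.

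A reef-building coral is an animal that houses photosynthetic algae in its cells, and sustained heat breaks this partnership in bleaching. In reef corals, front-loading is the name given to a pattern in which transcripts that heat induces elsewhere already stand high in colonies from warmer or more variable reefs, and change less once heat arrives. Molecular chaperones, which refold damaged proteins, and antioxidant enzymes are the classes usually named in that setting. The deposited tables pair no identifier with a gene name, so whether any member belongs to such a class is not reported here.

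Fragments came from reefs of the Florida Keys and were kept at 30 °C as controls or brought gradually to a higher temperature. Heat meant 33 °C in the 5-day fragments but 32 °C in the 31-day fragments, and so the times differ in temperature too. Each of the 8 groups (habitat, arm and day) had 9 libraries inshore or 3 offshore. Tags such as A4 name the colony, and 7 genotype labels go with them, In1 to In4 inshore and O1, O2 and O5 offshore. The labels give no other treatment and no allele, and each library is a piece of whole coral tissue with its algae. Fewer cells of a type and less RNA per cell cannot be told apart in such tissue. Offshore reefs are represented by 3 tags at each time. P-values of the tests between habitats measure the spread between genotype labels. Those of the heat tests rest on a spread shared by all 24 libraries of 31 days, most of them inshore. They do not measure the spread between the offshore colonies alone.

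Coral counts ran from 4726663 to 6686881 per library. In 3 libraries of 31 days, the C4 control and the B2 and B3 heated fragments, 106 features stood at 4 or more times their level in any other library, and the median log2 level of all features was 2.83 to 3.04, against 3.37 to 3.67 in the other 45. Of these features, 3 are members. The main results of 31 days are therefore given with and without them. Genotype labels and expression profiles also disagreed between the times. Over 18605 features outside the set, the 31-day control of tag C2, labelled O1, was most like the 5-day control of tag C2, labelled O2 (r = 0.80), tag C5 matched C5 (r = 0.61), and the controls of B2, B3 and C4 matched no 5-day colony above r = 0.22. The 3 offshore colonies of 31 days are thus not simply those of 5 days sampled again.

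The members were mostly transcripts of low abundance. Their mean level over the 48 libraries ran from 2.10 to 1341 CPM with a median of 6.66 CPM, against 11 CPM for all 26353 features at the minimum. By this mean, 125 members stood at 2 to 10 CPM, 52 at 10 to 50 CPM and 23 above that. In the offshore controls of 5 days a member's median estimated count had a median of 9.04, and it was below 10 for 102 of the 200. Single values of that group therefore carry a wide counting error.

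The levels of 5 days show what the choice selected, and are a description with no test. Taking each member's group median on the log2 scale, the median over members was 2.85 in inshore controls, 2.74 in inshore heated fragments, 1.44 in offshore controls and 2.60 in offshore heated fragments. For all features these medians were between 3.43 and 3.48 in every group, so the members set the offshore controls apart by being low there. The inshore minus offshore difference of controls ran from 0.82 to 5.52 with a median of 1.17. The offshore heated minus control difference ran from 0.80 to 2.35 with a median of 1.09. Both subtract the same 3 offshore control libraries. The inshore heated minus control difference ran from -1.77 to 0.50 with a median of 0.07. Heat brought 77 members up to or past the inshore control median offshore, and 123 stayed below it.

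**Figure D1:**
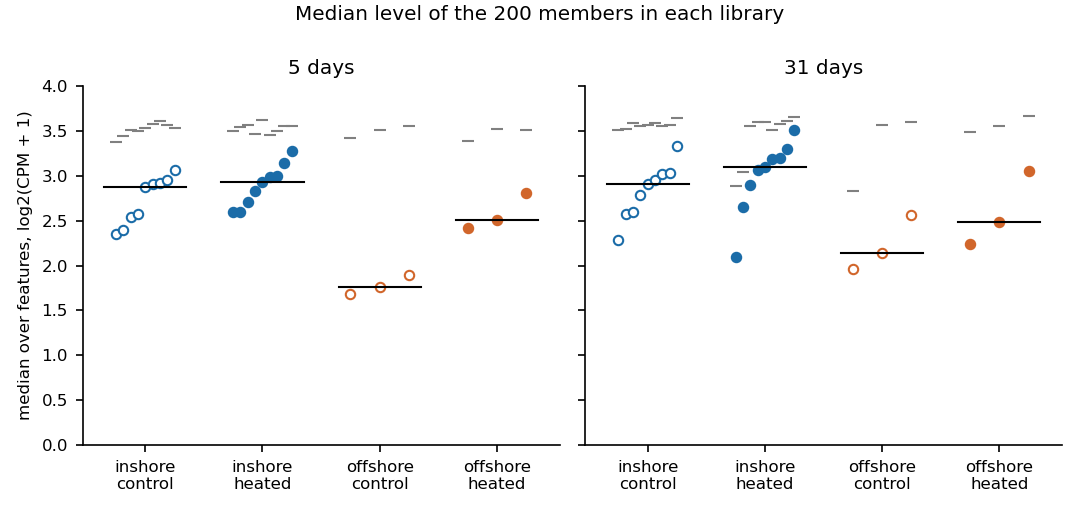
Median log2(CPM + 1) of the 200 members in each library (circles, open for control and filled for heated, with the group median as a line), and of all 26353 features in the same library (grey dashes). At 5 days the offshore controls sit at 1.69 to 1.89, below every other library of that day, and at 31 days they sit at 1.96 to 2.57, where inshore controls begin at 2.29.

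Few members separated the groups library by library. At 5 days, 15 members had every inshore control above every offshore control, where 0.877% of all features did. For 24 members every offshore heated fragment stood above every offshore control (6.25% of all features). Both held for 4 members. Within tags, 93 members (46.5%) were higher under heat in each of the 3 offshore tags (17.5% of all features), and 6 by at least 0.8 in each (0.516%). The rule used these contrasts, so the shares are a description. The median change over members was 1.0 in tag C5, 0.84 in C1 and 0.38 in C2, and from -0.22 to 0.40 in the 9 inshore tags. Leaving out 1 offshore control, whichever it was, left 88 to 98 of the 200 still meeting the thresholds, and leaving out 1 offshore heated library left 130 to 142. At the edges, the last member kept had a control difference of 0.819 and the first left out by the limit of 200 had 0.816, while the smallest offshore heat difference kept was 0.802 and the largest left out was 0.7997.

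Among inshore genotypes the higher control level was uneven. Over members, the median difference from the offshore control median at 5 days was 1.37 in In3, 1.22 in In1, 1.01 in In2 and 0.81 in In4. In all 4 labels together the difference was at least 0.8 for 56 members (1.06% of all features), and in 1 or none for 14. In4 is a single library, and In2 has 2.

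The member with the largest control difference, OFAVBQ_DN220573_c4_g1_i2, was close to an on or off transcript. In inshore controls of 5 days it was at 0.182 to 0.337 CPM in the 3 libraries of tags B4, BLY5 and BLY6 and at 43.0 to 99.4 CPM in the 6 libraries of the A and D tags. Offshore controls held it at 0 CPM in C1 and C2 and at 42.1 CPM in C5, and heated offshore fragments at 0.300, 0.777 and 106 CPM in the same order. The high and the low level occur in both habitats, and the 2 offshore tags without it fixed the group median at 0. At 31 days the A and D tags again had 41.9 to 126 CPM in both arms, and the B and BLY5 tags 0 to 0.494 CPM. Of offshore controls then, C2 had 0.400, C4 8.398 and C5 69.5 CPM. No other member had its 48 libraries parted by an empty stretch of at least 2 log2 units with at least 6 libraries on each side, a pattern found in 0.721% of all features.

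The next largest control difference belonged to OFAVBQ_DN210803_c3_g3_i1. Its inshore controls of 5 days ran from 0.671 to 207 CPM with a median of 25.5 CPM, and the 3 offshore controls had 0.183, 0.199 and 1.35 CPM. Heated offshore fragments had 0.938, 1.87 and 52.4 CPM. The control groups overlapped at the low end, where the B4 and BLY tags lie, and tags A3, A4, A6 and D6 were high.

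At the other end, OFAVBQ_DN225394_c6_g2_i1 had inshore controls of 1.68 to 14.7 CPM with a median of 4.13 CPM, and offshore controls of 1.60, 1.91 and 6.09 CPM. OFAVBQ_DN222826_c2_g1_i9 had inshore controls of 5.15 to 36.4 CPM with a median of 28.4 CPM, and offshore controls of 15.0, 15.7 and 19.7 CPM. In both, the control groups overlapped.

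Heat moved OFAVBQ_DN205365_c0_g2_i2 most in the offshore medians, by 2.35 on the log2 scale. Its offshore controls had 1.23, 1.36 and 3.54 CPM in C1, C2 and C5 and the heated fragments 11.03, 22.4 and 4.13 CPM, so the groups did not overlap, although C5 changed little. OFAVBQ_DN211636_c1_g7_i1 followed with 2.21, but there C5 was already at 12.2 CPM in the control and at 10.1 CPM under heat, while C1 went from 1.39 to 1.80 CPM and C2 from 0.851 to 11.7 CPM.

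The members with the highest mean CPM in inshore controls of 5 days were OFAVBQ_DN222743_c1_g1_i6 and OFAVBQ_DN222743_c1_g3_i2. They share a read cluster of the assembly (the part of the identifier before its g number). The first ran from 4.84 to 2443 CPM across the 9 inshore controls with a median of 40.9 CPM, where the highest median of a member was 216 CPM. The same first member had 4.60, 9.49 and 44.8 CPM in the offshore controls. At 31 days it reached 6907 CPM in the C4 control and 11675 and 32704 CPM in the heated B3 and B2 fragments, and 5107 CPM in the heated A2 fragment. Single fragments thus stood far above the rest in both habitats.

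The libraries of 31 days took no part in the group medians and were used for all tests. They are not a separate sample of colonies. Offshore tags C2 and C5 matched their own 5-day controls, and inshore tags such as A4, D5 and D6 occur at both times. The 31-day values are therefore no independent check of the choice. There the control difference kept its direction in most members. The 5-day values were chosen to be large, so a smaller size at 31 days is no result. The offshore control median was below the inshore one for 162 of 200 members (81.0%), where this held for 60.1% of all features. The median difference was 0.56 against 0.08 for all features, and 0.50 over members without the 3 libraries that stand apart. At least 0.8 was reached by 84 members (42.0%), where 8.76% of all features reached it. Without the 3 libraries that stand apart these were 74 members (37.0%), against 5.74%. For 14 members every inshore control stood above every offshore control, where 2.1% of all features did. The control difference had turned to -0.8 or less in 2 members, where 3.92% of all features stood at -0.8 or less. The medians over members were 2.86 in inshore controls, 2.18 in offshore controls, 3.04 in inshore heated and 2.51 in offshore heated fragments.

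**Figure D2:**
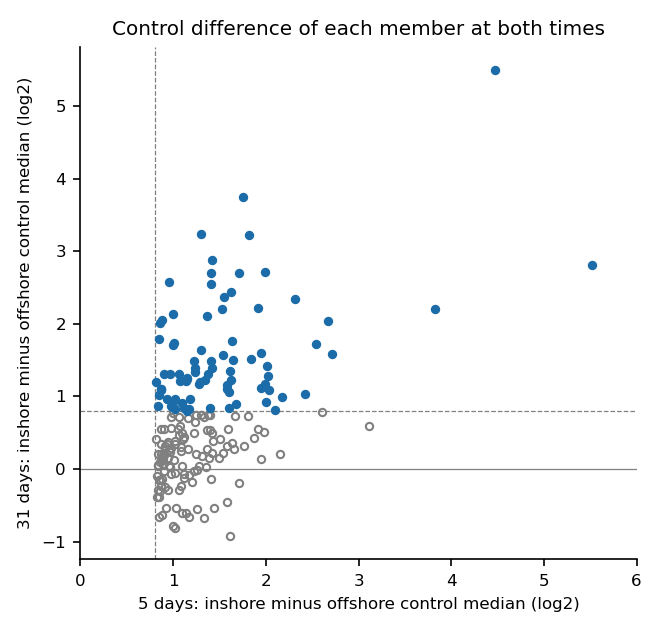
Inshore minus offshore control median of each of the 200 members on the log2(CPM + 1) scale at 5 days (horizontal axis) and 31 days (vertical axis), with dashed lines at 0.8 and filled points for the 84 members at or above it at 31 days. The 5-day values were chosen to lie above 0.8, and the 31-day values were not.

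In the test over genotypes, 4 inshore against 3 offshore, no member was called. With edgeR's quasi-likelihood test, 192 members passed the filter on low counts, 0 had an adjusted p under 0.05 (of all 27795 features 0% were called higher and 0.0036% lower), and 24 were higher and 11 lower at an unadjusted p under 0.05, where 2.58% and 4.28% of all features were. DESeq2 called 0 as well (0.137% of all features higher and 0.0976% lower). The median log2 difference over the tested members was 0.17 against -0.02 for all features, on counts summed per genotype with the C4 control included. Without the C4 control, which left only the labels O1 and O5 offshore, the median was 0.43. Then 38 members were higher and 1 lower at an unadjusted p under 0.05, where 3.86% and 2.99% of all features were. The smallest p of a member was that of OFAVBQ_DN199205_c0_g1_i1, described with the offshore heat response (log2 difference 2.43, SE 0.68, edgeR adjusted p = 0.680).

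Members without overlap of the control groups at both times were 3 (1.5%), where 0.0911% of all features had none, and they are named here after their values were seen. The 5-day side of this count rests on the contrast that chose them. OFAVBQ_DN212819_c2_g1_i4 had inshore controls of 2.53 to 8.04 CPM at 5 days and 2.54 to 8.20 CPM at 31 days. Its offshore controls had 0.797, 0.949 and 1.54 CPM, then 0.909, 2.10 and 2.40 CPM. OFAVBQ_DN218172_c0_g1_i7 had inshore controls of 5.69 to 15.6 CPM and 7.66 to 22.0 CPM, and offshore controls of at most 4.58 and 6.40 CPM. OFAVBQ_DN213266_c1_g1_i12 had inshore controls of 3.35 to 9.77 CPM and 4.76 to 11.9 CPM, and offshore controls of at most 2.99 and 3.64 CPM. Inshore controls of these 3 spanned a far narrower range than those of the 2 members with the largest differences.

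Under heat at 31 days the inshore fragments also stood above the offshore ones. The median difference was 0.54 against -0.03 for all features, and 0.60 without the 3 libraries. At least 0.8 was reached by 74 members (37.0%), where 5.13% of all features reached it, and by 78 (39.0%) without the 3 libraries, where 6.18% did. For 8 every inshore heated fragment was above every offshore one (0.748% of all features). An inshore median above the offshore median in both arms was seen in 134 members (67.0%), where 32.3% of all features had it. In edgeR's test over genotypes 0 of 198 members tested were called (0% of all), with 49 higher and 1 lower at an unadjusted p under 0.05, where 2.76% and 1.85% of all features were. Without the 3 libraries, only the labels In1, In3 and In4 were left inshore. That edgeR test also called 0, with 36 higher and 0 lower at that p, where 2.78% and 2.27% of all features were. With these libraries kept, DESeq2 called 11, all higher (0.51% of all features). The member with the smallest edgeR p, OFAVBQ_DN207236_c0_g2_i1 (log2 difference 3.19, SE 0.52, adjusted p = 0.508), belongs to the group that varied together, described last.

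Offshore, the 5-day heat differences were chosen to be large too, and those of 31 days were not. The median heated minus control difference was 0.31 against 0.08 for all features, and 0.10 without the 3 libraries. At least 0.8 was reached by 39 members (19.5%), where 5.71% of all features reached it, and by 31 (15.5%) without the 3 libraries, where 3.63% did. Leaving out single libraries gave 31 to 65 members, with 65 without the heated C5 fragment. The share of all features was not counted in those runs. For 15 members every heated offshore fragment was above every offshore control (6.79% of all features). A higher level under heat in each of the 3 tags was seen in 46 members (23.0%), close to the 19.95% of all features. Tag C4 gave a median of 0.76 beside 0.70 for all its features, since its control stands apart, C2 gave 0.23, and C5 gave -0.23. In the controls of C5 and C2, whose profiles matched between the times, the members' median level was 1.69 and 1.89 at 5 days. At 31 days it was 2.57 and 2.14, where inshore controls ran from 2.29 to 3.33. Members were chosen to be low in the offshore controls of 5 days, so a higher level at 31 days is no result.

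**Figure D3:**
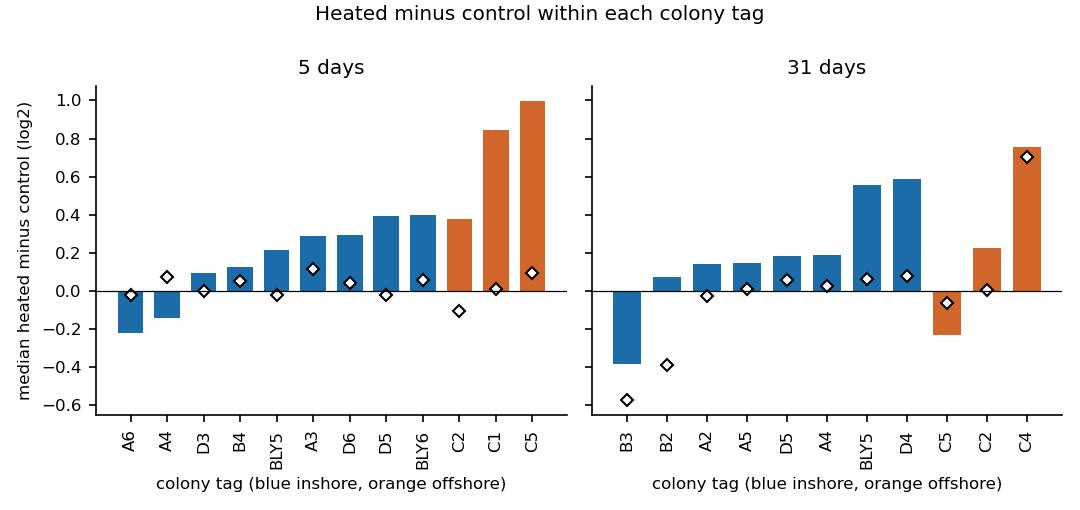
Median over the 200 members of heated minus control log2(CPM + 1) within each colony tag (bars, blue inshore and orange offshore) and the same over all 26353 features (diamonds), for 12 tags at 5 days and 11 at 31 days. The offshore tags stand at 0.38 to 1.0 at 5 days and at -0.23 to 0.76 at 31 days, where C4 moves with all of its features.

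No member was called in edgeR's test of the offshore heat response (0 of 200, with 0.00852% of all features called higher and 0.0227% lower). At an unadjusted p under 0.05, 16 were higher and 3 lower, where 5.03% and 4.86% of all features were, and DESeq2 called 4 (0.634% of all features higher). With colony tags as a replicate block the count was 1, and without the 3 libraries it was 1. The smallest p values belonged to OFAVBQ_DN205346_c2_g1_i3 (log2 change 1.33, SE 0.27, edgeR adjusted p = 0.0693) and OFAVBQ_DN224319_c0_g1_i1 (1.38, SE 0.29, edgeR adjusted p = 0.0701), which followed each other over the 31-day libraries that do not stand apart (rho = 0.95). The latter had 11.8, 29.0 and 35 CPM in the offshore controls of C4, C2 and C5 and 65.0, 75.7 and 69.9 CPM under heat, with no overlap. At 5 days its C5 control was already at 119 CPM and its heated fragment at 91.6 CPM, while C1 went from 37.6 to 91.4 CPM and C2 from 37.4 to 162 CPM. Inshore controls of 31 days had 38.3 to 68.8 CPM and heated inshore fragments 31.1 to 105 CPM.

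The offshore arms did not overlap at either time for 2 members (1.0%), a share near the 1.33% of all features. Both are again named after their values were seen. OFAVBQ_DN199205_c0_g1_i1 had offshore controls of 2.39, 2.47 and 2.89 CPM at 5 days and 0.954, 1.27 and 3.20 CPM at 31 days. Heated offshore fragments had 4.54, 8.29 and 12.4 CPM, then 5.51, 7.94 and 13.3 CPM. Inshore controls ran from 2.19 to 35.6 CPM and from 3.17 to 23.1 CPM, so 1 inshore control at each time lay below an offshore control. OFAVBQ_DN218990_c1_g3_i4 had offshore controls of 2.47, 2.59 and 3.06 CPM at 5 days and 2.67, 3.71 and 5.82 CPM at 31 days, and heated fragments of 4.51, 9.04 and 9.59 CPM, then 6.49, 7.42 and 10.7 CPM.

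**Figure D4:**
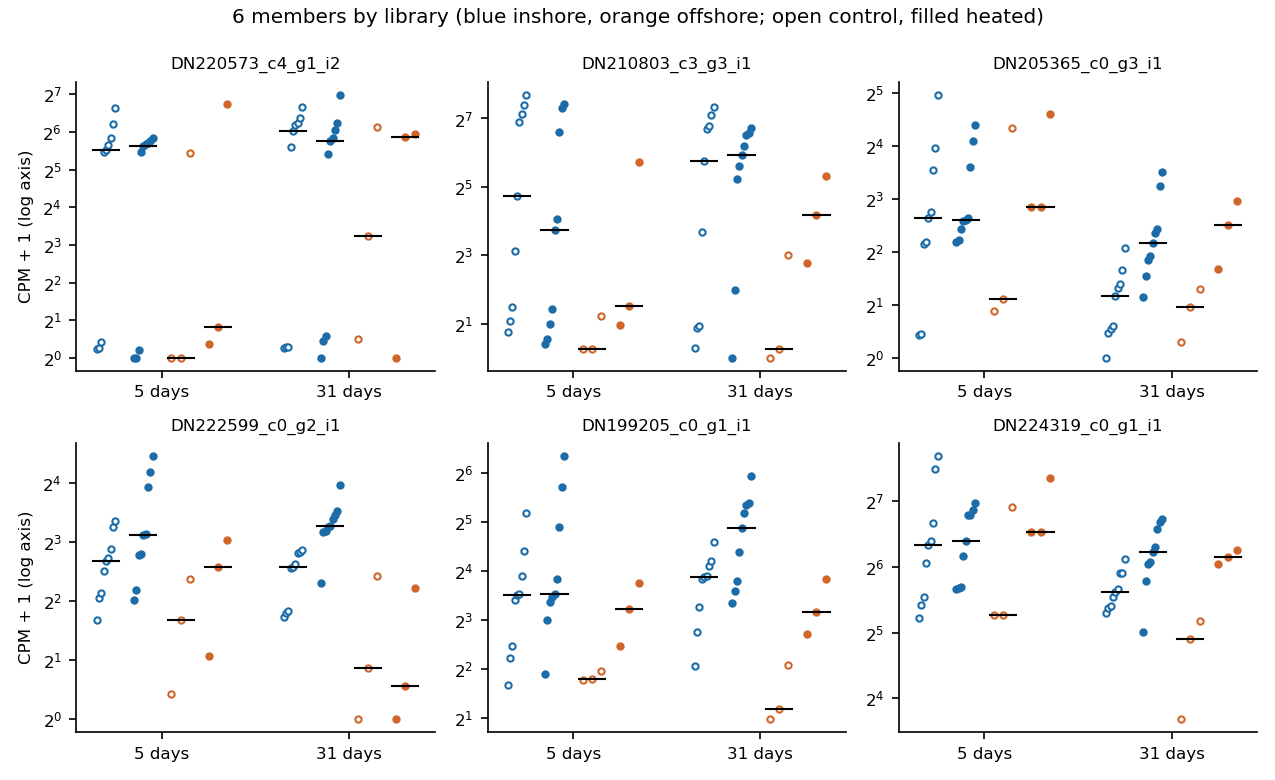
CPM + 1 (log axis) of 6 members in every library at 5 and 31 days, inshore to the left of offshore and control to the left of heated, with lines at group medians. OFAVBQ_DN220573_c4_g1_i2 is at 0 to 0.777 CPM or at 8.398 CPM and above, while OFAVBQ_DN199205_c0_g1_i1 and OFAVBQ_DN224319_c0_g1_i1 show offshore controls below heated offshore fragments at 31 days.

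Inshore, the rule held the rise of the medians at 5 days below 0.5 and set no limit on a fall. At 31 days 10 members rose and 1 fell under heat in edgeR's test at an adjusted p under 0.05, where 1.11% of all features rose and 1.26% fell. The median log2 change over the 200 was 0.33 against 0.03 for all features, and 47 were higher and 2 lower at an unadjusted p under 0.05 (9.7% and 9.71% of all features). In the group medians, 45 members rose by 0.5 or more (22.5%), where 4.83% of all features did. These numbers were 65 (32.5%) and 6.76% without the 3 libraries. DESeq2 called 22 higher and 2 lower (3.41% and 3.73% of all features). With colony tags as a replicate block, edgeR called no member. At an unadjusted p under 0.05, 48 were then higher and 3 lower, where 8.70% and 8.06% of all features were. The same block without the 3 libraries called 9. The called members changed with single colonies: leaving out 1 library gave 1 to 18 calls (1 without the BLY5 control or the heated BLY5 fragment, 4 to 7 without any of 9 other inshore libraries, and 18 without either C4 library), and leaving out the genotype label In1, In2, In3 or In4 gave 2, 3, 0 and 1.

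OFAVBQ_DN222599_c0_g2_i1 had the smallest p. Its inshore controls of 31 days ran from 2.32 to 6.29 CPM with a median of 4.98 CPM, and its heated inshore fragments from 3.92 to 14.6 CPM with a median of 8.60 CPM. The level was higher under heat in 8 of 8 inshore tags (log2 change 1.09, SE 0.22, edgeR adjusted p = 0.0152, and 0.110 with the replicate block). Offshore it had 0, 0.832 and 4.36 CPM in the controls of C4, C2 and C5 and 0, 0.475 and 3.66 CPM under heat, higher in none of the 3 tags.

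OFAVBQ_DN205365_c0_g3_i1, of the same read cluster as the member with the largest offshore heat difference of 5 days, rose in 7 of 8 inshore tags. Its inshore controls had 0 to 3.23 CPM with a median of 1.25 CPM, and the heated fragments 1.21 to 10.5 CPM with a median of 3.48 CPM (log2 change 1.89, SE 0.40, edgeR adjusted p = 0.0174, and 0.0865 with the replicate block). Offshore it went from 0.237, 0.934 and 1.45 CPM in C4, C2 and C5 to 2.20, 4.70 and 6.78 CPM, without overlap (log2 change 2.34, SE 0.74, edgeR adjusted p = 0.296). At 5 days its inshore controls had ranged from 0.340 to 30.4 CPM.

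The member that fell inshore was OFAVBQ_DN224826_c0_g2_i1, lower in 7 of 8 tags. Its inshore controls had 11.2 to 24.1 CPM and its heated fragments 3.86 to 14.3 CPM (change of -0.75 in log2, SE 0.19, edgeR adjusted p = 0.0421, and 0.149 with the replicate block). The heated B2 and B3 fragments were its lowest, at 3.86 and 4.28 CPM, and without the 3 libraries the change was -0.54 and the member was no longer called (edgeR adjusted p = 0.110). The call was lost in 25 of 40 alternatives, among them library totals and no filter, with adjusted p from 0.00748 to 0.241 over all 40. At 5 days the same member had been higher under heat in 9 of 9 inshore tags.

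The other 8 members that rose were the pair OFAVBQ_DN205346_c2_g1_i3 and OFAVBQ_DN224319_c0_g1_i1, OFAVBQ_DN199205_c0_g1_i1 and 5 more, with log2 changes from 0.62 to 2.38. The difference between the offshore and inshore heat responses, tested in the same model, gave 0 calls among the 200 by edgeR (0% of all features) and by DESeq2 (0.118% higher and 0.215% lower). At an unadjusted p under 0.05, 7 members were higher and 14 lower offshore than inshore, where 6.58% and 7.07% of all features were. Its median over members was -0.12 against 0.00 for all features, and the sign rested on tag C5. The median was 0.14 without the C5 control and 0.13 without the heated C5 fragment. Without the 3 libraries it was -0.30. At an unadjusted p under 0.05, 2 members were then higher and 12 lower, where 2.86% and 3.37% of all features were. With library totals, which put all features at 0.29, the median over members was 0.14. The smallest p was that of OFAVBQ_DN202388_c4_g1_i4 (log2 difference -2.51, edgeR adjusted p = 0.325).

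All 3 thresholds were met again in the medians of 31 days by 13 members (6.5%), where 2.24% of all features met them. Without the 3 libraries it was 13 as well, against 1.05%. Both differences reached 0.8 in 21 members, of which 8 also rose by 0.5 or more inshore. Leaving out single libraries gave 10 to 27: 27 without the C5 control, 22 without the C2 control, and 26, 22 and 25 without the heated C2, C4 and C5 fragments. The share of all features was not counted in these runs, so a higher count there is no result about the members. At 5 days, leaving out 1 offshore control raised the features that met the rule from 207 to between 342 and 416. The 13 include OFAVBQ_DN220573_c4_g1_i2, described by its colony-dependent level, and the abundant OFAVBQ_DN195259_c0_g2_i3 with a mean of 121 CPM. They also include OFAVBQ_DN210803_c3_g3_i1, which followed a set of algal features over the 24 libraries of 31 days (rho = 0.99, described below). OFAVBQ_DN216608_c4_g1_i1, another of the 13, followed OFAVBQ_DN210803_c3_g3_i1 over the libraries that do not stand apart (rho = 0.92). OFAVBQ_DN195259_c0_g2_i3 and OFAVBQ_DN216608_c4_g1_i1 were chosen here after their values were seen.

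The shares of members at single thresholds were also taken by mean CPM over the 48 libraries, with the 3 libraries that stand apart included. The share with an offshore heat difference rose with abundance, and that with a control difference varied less. At 31 days a control difference of 0.8 or more was kept by 38.4% of the 125 members at 2 to 10 CPM, 48.1% of the 52 at 10 to 50 CPM and 47.8% of the 23 at 50 CPM or more. For all features of these levels the shares were 11.5%, 7.67% and 3.10%. An offshore heat difference of 0.8 or more was seen in 9.60%, 30.8% and 47.8% of the same members (12, 16 and 11 members), against 7.42%, 4.98% and 2.38% of all features. Among members of low abundance, the share with an offshore heat difference was thus near that of all features.

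By genotype label, the median difference from the offshore controls at 31 days was 0.75 in In3, 0.62 in In1, 0.31 in In2 and 0.25 in In4. A difference of at least 0.8 in all 4 labels was seen in 16 members (8.0%), where 1.65% of all features had it. The labels do not name the same colonies at both times. Fragments labelled In4 at 31 days carry the tag BLY5, which was labelled In2 at 5 days, and the B2 and B3 controls, labelled In2 at 31 days, matched no 5-day colony.

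Across the 21 libraries of 31 days that do not stand apart, the members did not move as 1 group. Spearman's rho between pairs of members had a median of 0.17, with quartiles of -0.03 and 0.36, and 4.92% of the 19900 pairs reached 0.6, against 1.60% of all feature pairs. These pairs share libraries and depth. Pairs at 0.9 or more linked 30 members into 11 groups, 9 of them of 2 members.

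The largest of these groups held 9 members from 9 read clusters, with rho of 0.82 to 0.98 between them at 31 days and of 0.86 to 0.98 over the 24 libraries of 5 days. Of them, OFAVBQ_DN217277_c1_g1_i4 was the most abundant, with 0 to 118 CPM, and 23 of all features (0.0873%) followed it at 0.9 or more. Summed over the 9, the offshore controls of 5 days had 0 CPM in C2, 2.28 CPM in C5 and 128 CPM in C1, and the heated fragments 0.622, 17.5 and 273 CPM in the same order. Inshore controls ran from 0.729 to 50.5 CPM with a median of 19.1 CPM. Tag C1 was thus above every inshore control, and the offshore group medians were those of C5, between a colony at or near 0 and a high one. At 31 days the C2, C4 and C5 controls had 0.99994, 1.91 and 92.5 CPM, and the heated fragments 23.9, 0.175 and 3.82 CPM in the same order. The sum was thus higher under heat in C2 and lower in C4 and C5. Tag C1 has no library of 31 days here, and C4 none of 5 days. Inshore, fragments ran from 3.81 to 178 CPM in controls and from 4.44 to 224 CPM under heat.

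**Figure D5:**
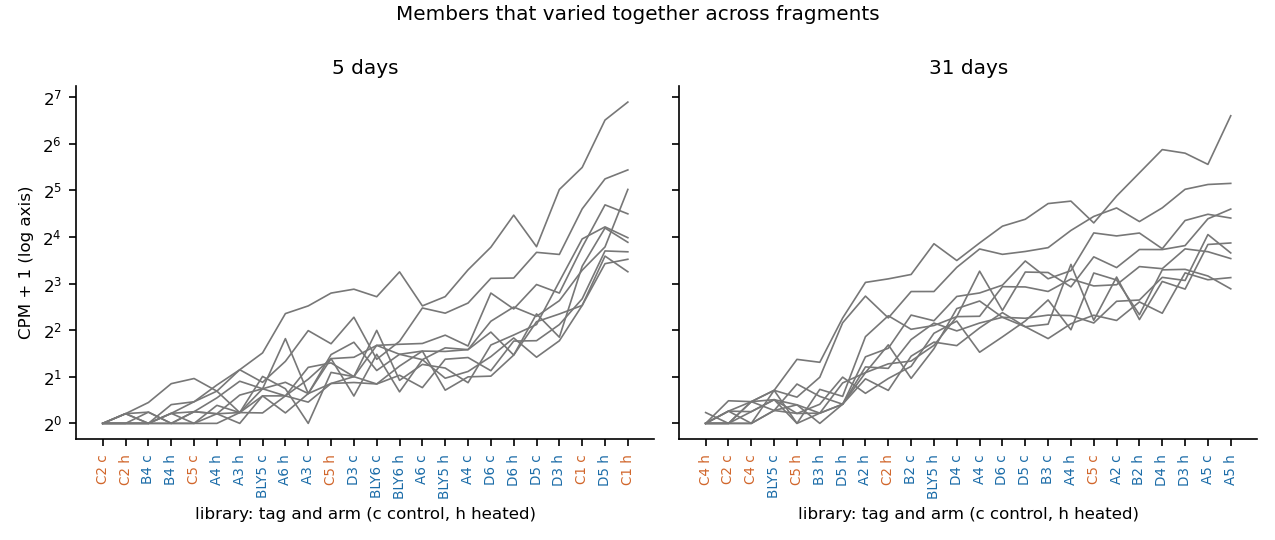
CPM + 1 (log axis) of the 9 members that varied together, 1 line each, with the libraries of each day ordered by the sum of the 9 (tag in blue for inshore and orange for offshore, c for control and h for heated). The lines rise together, and offshore libraries lie at both ends at 5 days, from C2 at 0 CPM to C1 heated with a sum of 273 CPM.

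The second table, of features its name marks as symbiont, moved with habitat and heat as well. From the control libraries, 15420 of its features rose together along the first principal component (87.9% of the variance of 37431 features) and are called algal set 1, and 18033 moved against them, algal set 2. Offshore at 5 days, set 1 made up 0.180% to 0.692% of both sets in controls and 31.2% to 81.6% in heated fragments, and second-table counts were 14.1% to 18.9% of all counts in controls and 1.0% to 8.47% under heat. Of the members, 7 (3.5%) had a Spearman correlation of at least 0.6 with the set 1 count per coral count over the 24 libraries of 31 days, where 1.83% of all features did, and 4 had at least 0.8 (0.182% of all features). None had 0.6 or more with set 2 (0.444% of all features), and 2 (1.0%) had -0.6 or less (0.584% of all features). With all second-table counts per coral count, 8 members (4.0%) had -0.6 or less, where 1.2% of all features did, and 0 had 0.6 or more (2.54% of all features). The highest correlation with set 1 was 0.99, in OFAVBQ_DN210803_c3_g3_i1. This feature of the coral table thus followed the amount of algal set 1 almost exactly across colonies. OFAVBQ_DN225394_c6_g2_i1 is also among the 7. Without the B2 control 14 members had at least 0.6, and without the heated B2 fragment 11. The part of the algae in the members' differences was not tested, and their median correlation with set 1 was 0.17 against 0.07 for all features.

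Most transcripts of a member's read cluster had a control difference below 0.8. A larger share of them than of all features reached 0.8. The share at -0.8 or less was near that of all features at 5 days and larger at 31 days, on few features. Of the 200 members, 116 (58.0%) had another feature of their read cluster in the coral table, against 52.6% of all features, and 69 such features had at least 2 CPM. Their control difference of 5 days had a median of 0.22, with 12 (17.4%) at 0.8 or more, against 6.34% of all features. At -0.8 or less stood 4 (5.80%), against 3.96% of all features. At 31 days the median was 0.11, with 11 (15.9%) at 0.8 or more, against 8.76% of all features. At -0.8 or less stood 7 (10.1%), against 3.92% of all features. Estimated counts can divide reads between near-identical transcripts, so a member stands for an assembled sequence and its difference may not be that of the whole gene.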

How the data were processed

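The authors deposited each estimated count per assembled transcript, in a coral table and a second table named as symbiont; 23.5% and 3.04% of the values were not whole and were rounded for tests. The submitters' processing notes name Trimmomatic 0.36 and RSEM, while the deposited counts carry the name kallisto. The libraries are stranded mRNA, per the labels' protocols; the reference is not given in the sources used here. The members and lists were chosen with earlier results of these data known, and the 24 libraries of 5 days that chose them got no test. A coral column named for BL6 was taken as BLY6, the sample left for it. No other column was left unused (0).

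At 31 days, edgeR 4.0.16 (R 4.3.3; TMM scaling, filterByExpr, quasi-likelihood F test, Benjamini-Hochberg over all features, threshold 0.05) compared habitats on counts summed per genotype label, and heat in 1 model of 24 libraries with a term per label. DESeq2 1.42.0, other scalings, no filter, colony tags as a replicate block and left-out libraries were alternatives. Tags paired the arms: deviations from group means correlated at 0.49 to 0.77 over 12 pairs of 5 days and 0.33 to 0.76 over 11 pairs of 31 days. The fits were also run on simulated counts without differences between colonies, so that run cannot show how they behave with such differences. All pairs of libraries within a group differed by more than sampling noise (lowest chi-square per degree of freedom 3.72 over 156 pairs). Members named were the 2 with the largest and the 2 with the smallest control difference and the 2 with the largest offshore heat difference of 5 days. Also named were the 2 with the highest mean CPM in inshore controls of 5 days, and, among those called, the 2 of smallest p per direction. Others named were chosen after their values were seen.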

Additional observations from a re-analysis of the deposited data

Results flagged for a closer look

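Single fragments far from the rest of their group of 9 were looked for in the median level of the members, the algal share and the 11 named members, and 3 were found among 52 groups, where chance alone gives about 1 in 20 groups, or 2.6. OFAVBQ_DN222599_c0_g2_i1 was at 3.92 CPM in the heated inshore fragment BLY5 of 31 days, below the other 8. OFAVBQ_DN222826_c2_g1_i9 was at 6.94 CPM in the heated inshore fragment B4 of 5 days and at 8.35 CPM in the inshore control B3 of 31 days, each far below the other inshore fragments of its group.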

How the results depend on the processing

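Directions of the 7 tests named by member did not turn in any alternative run. The count of called members moved. For the inshore heat response (11 called) DESeq2 gave 24, library totals 7, no filter 7, no replicate block 2 and the replicate block of colony tags 0, and leaving out libraries or genotype labels gave 0 to 18. For the offshore heat response (0 called) DESeq2 gave 4, the replicate block 1, the replicate block without the 3 libraries that stand apart 2, tags B2 and B3 as separate genotypes 2, the fit without the 3 libraries 1, and left-out libraries or labels 0 to 3 (3 without In2, 2 without the heated B3 fragment, 1 without the B2 control). For the difference of the responses, every alternative gave 0, the replicate block included. Each library as a replicate gave 1 for the controls, a member lower inshore, and DESeq2 gave 11 for the heated fragments, with 0 in both for every left-out library or label. The rule was met by 207 features, by 91 with thresholds of 1.0 and by 195 to 416 with 1 library of 5 days left out, with 342 to 416 without an offshore control and 375 to 402 without a heated offshore fragment. At 31 days, left-out libraries gave 74 to 94 members with the control difference, 31 to 65 with the offshore and 33 to 58 with the inshore heat difference, and 10 to 27 with all thresholds. For these left-out libraries the share of all features was not counted. Members following algal set 1 numbered 4 at a threshold of 0.8 and 7 to 14 with 1 library left out. The fit with the tag block and without the 3 libraries, and the left-out libraries of the 31-day medians and of the algal count, were chosen after seeing the data. Tests on summed isoforms were not run, since no assembled gene identifier stands more than once in the coral table (0). The cause of these shifts was not tested. Offshore groups of 3 libraries and counts near 9 limit what the members can show.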
